A study of Mus musculus with 22 samples.

Results

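The 40 genes described here encode the pyruvate dehydrogenase complex with its kinases and phosphatases, enzymes of the tricarboxylic acid (TCA) cycle, and enzymes that break down the branched-chain amino acids. They were chosen by symbol, and isocitrate and succinate dehydrogenase were left out of the set. All 40 stood among the 55487 genes of the deposited count table, and all 40 were tested. Their lowest count in any library was 14. Together they held between 1.38% and 1.85% of the counts of a library.

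Pyruvate from glycolysis enters the mitochondrial matrix, where the pyruvate dehydrogenase complex turns it into acetyl-CoA. Kinases (Pdk) phosphorylate the complex and switch it off, and phosphatases (Pdp) reverse this, so that the balance of both sets how much carbohydrate a muscle burns. The branched-chain amino acids leucine, isoleucine and valine are transaminated largely in muscle and then pass through a related dehydrogenase, which has its own kinase (Bckdk) and phosphatase (Ppm1k). Their carbon reaches the TCA cycle as acetyl-CoA or, through propionyl-CoA, as succinyl-CoA. Thyroid hormone is known to raise the oxidative metabolism of muscle, and thyroid hormone receptor alpha is the main receptor form there.

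Poly-A RNA came from the soleus, a muscle of mixed slow and fast fibres, of male mice labelled WT or TRa1 KO, the latter a knockout of thyroid hormone receptor alpha 1. Mice received triiodothyronine (T3), the active hormone, or vehicle, which gave 5 WT vehicle, 6 WT T3, 4 KO vehicle and 7 KO T3 libraries. The labels do not state the dose or duration of T3, the age of the mice, or whether the knockout covered muscle alone or the whole body. Nor do they say which libraries stem from separate animals, and p-values here speak only of the spread among these libraries, which may be technical.

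Thra, the gene that encodes the receptor, read 77.7 ± 8.49 CPM (mean ± SD of counts relative to the TMM-scaled library size) in WT vehicle and 47.6 ± 4.42 CPM in KO vehicle. The ranges of these groups did not overlap, and the log2 difference was -0.71 ± 0.22 (SE) with an adjusted p of 0.0979. Under T3 the levels were 42.7 ± 13.5 CPM in WT and 32.6 ± 7.72 CPM in KO. These ranges overlapped, and the log2 difference was -0.39 ± 0.18 (edgeR quasi-likelihood test, adjusted p = 0.271). T3 itself lowered Thra in WT by a log2 change of -0.86 ± 0.20 (same test, adjusted p = 0.016). The WT T3 mean thus lay below that of KO vehicle, and Thra does not separate the genotypes under T3. Counts per gene sum all transcripts of Thra, so they check the labels only in part.

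Library totals ran from 14542548 to 75766782 counts. Several T3 libraries lay apart from the others on the leading principal components: WT T3 replicate 5 on the first, and WT T3 replicates 1 and 3 with KO T3 replicates 2 and 3 on the second. Mitochondrial transcripts took 11.2% of counts in WT T3 replicate 5 and up to 29.5% in the other libraries. Without these 5 libraries, 7 of the 40 genes described below were called with T3 in WT, 8 with T3 in KO, and 5 and 4 between genotypes under vehicle and under T3, against 7, 2, 4 and 6 with all libraries. The share of all tested genes called in either direction was 2.94%, 4.5%, 6.81% and 4.33% without them, against 3.31%, 2.72%, 3.08% and 5.57% with all libraries. In bulk RNA, fewer cells of a type and less RNA per cell cannot be told apart.

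Among the 40 genes, T3 lowered 7 and raised 0 in WT mice, against 1.59% of all 15082 tested genes that were called lower and 1.72% called higher. Calls rest on an adjusted p below 0.05 in the quasi-likelihood test of edgeR, with the Benjamini-Hochberg method applied over all tested genes. Where no other tool or setting is named, called and not called refer to this test. The 7 were Pdk1 and Pdk2, the TCA cycle gene Suclg2, and 4 genes of branched-chain and propionyl-CoA breakdown, Ppm1k, Mccc2, Aldh6a1 and Pccb. Without the 5 libraries apart 6 of these 7 calls held, with log2 changes from -0.59 (Pdk2) to -0.36 (Mccc2). In KO mice T3 raised Pdp2 and lowered Ppm1k, where 1.68% of all genes were called higher and 1.03% lower. The median log2 change of the 40 genes was -0.09 in WT and -0.00 in KO, beside 0.01 and 0.02 over all genes.

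The genotypes differed in few of the genes under either treatment. Under vehicle, Pdk1 and Ppm1k were higher and Got1 and Pdhx lower in KO than in WT, against a background of 1.56% called higher and 1.52% lower among all genes. Under T3 the same 4 genes were called in the same directions, together with Suclg2 as higher and Suclg1 as lower, and 3.23% of all genes were called higher and 2.34% lower. Without the 5 libraries apart the T3 differences of Pdk1 (0.64), Ppm1k (0.58), Suclg2 (0.37) and Got1 (-0.65) were still called. The median log2 difference of the 40 genes was -0.10 under vehicle and -0.09 under T3, beside -0.02 and -0.00 over all genes. With scaling by total counts only, the median of all genes shifted to 0.13 under vehicle and 0.16 under T3 and that of the 40 genes to 0.05 and 0.07, so the sign of the median depends on the scaling. That scaling called 3 of the 40 genes higher and 1 lower under vehicle, and 9 higher and 1 lower under T3. The higher share of all called genes then moved from 50.8% to 75.7% under vehicle, from 58.0% to 85.9% under T3, and from 62.0% to 76.6% for T3 in KO.

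Slow-fibre and fast-fibre markers moved with genotype. Of 8 slow-fibre genes, 5 were called higher in KO under vehicle and 6 under T3, and of 8 fast-fibre genes 5 and 4 were called lower. All 8 fast-fibre genes had log2 differences below 0 under vehicle. Under T3, 6 were below 0 and 2 above, from -1.71 to 0.25. The summed slow-fibre level was 22128 to 32989.6 CPM in WT vehicle and 43556 to 50945 CPM in KO vehicle, and 17394 to 26824 CPM in WT T3 and 40462 to 47917 CPM in KO T3. The summed fast-fibre level was 21535 to 50829 CPM in WT vehicle, 8948 to 17523 CPM in KO vehicle, 29177 to 45662 CPM in WT T3 and 12387 to 25317 CPM in KO T3. The mitochondrial share of counts ran from 18.9% to 24.3% (median 22.6%) in WT vehicle and 15.6% to 22.7% (median 16.1%) in KO vehicle. Under T3 it ran from 11.2% to 29.5% (median 22.8%) in WT and 13.2% to 24.4% (median 16.1%) in KO. The ranges overlapped under both treatments. The share also followed the sample number of the labels. It was 17.4% to 29.5% in samples 1 to 12 and 11.2% to 19.0% in samples 13 to 22. Of the KO vehicle libraries, replicate 1 is sample 4 (22.7%) and replicates 2 to 4 are samples 15, 17 and 22. WT vehicle replicates 1 to 4 are samples 1, 2, 10 and 12, and replicate 5 is sample 19 (18.9%). Under vehicle, genotype and sample number thus cannot be told apart for this share. These values stand beside every genotype difference below, and their part in those results was not tested.

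Few markers of other cell types were called between genotypes. Under T3, 2 of 5 endothelial genes were called lower and 1 of 5 macrophage genes higher in KO, and under vehicle 1 of 5 erythroid genes was called higher. All 5 erythroid genes were above 0 there (median 2.28). Their summed level was 43.6, 96.2, 982 and 33.4 CPM in KO vehicle replicates 1 to 4, with replicate 3 far above the others. None of the fibroblast, Schwann cell, white adipocyte or brown adipocyte genes was called between genotypes by edgeR. Ucp1, the defining brown adipocyte gene, averaged between 0 and 0.0792 CPM over the groups. The brown adipocyte list held 4 genes (Ucp1, Cidea, Elovl3 and Ppargc1a), of which 3 were tested. Calls in this list are therefore not read as a change of brown adipocytes. With T3 in WT, 1 of 8 fast-fibre genes was called higher. Called lower were 1 of 5 Schwann cell genes and 1 of the 3 tested genes of the brown adipocyte list. Of the 8 fast-fibre genes, 6 had log2 changes above 0 and 2 below, from -1.72 to 1.30. All 5 Schwann cell genes had log2 changes below 0 there (median -1.09), and their summed level was 80.0 to 371 CPM in WT vehicle (median 81.1) and 55.0 to 76.2 CPM in WT T3. The 5 erythroid genes were all above 0 (median 1.64) but not called, with a summed level of 43.9 to 70.0 CPM in WT vehicle and 78.2 to 333 CPM in WT T3. All 5 fibroblast genes (median 0.58) and all 5 macrophage genes (median 0.27) were above 0 as well and not called. Their summed levels were 228 to 336 and 14.6 to 25.2 CPM in WT vehicle and 256 to 622 and 16.8 to 33.2 CPM in WT T3. With T3 in KO, 1 fast-fibre gene was called higher and 1 of the 3 tested genes of the brown adipocyte list lower. Of the 8 fast-fibre genes, 6 were above 0 and 2 below. All 5 fibroblast and all 5 macrophage genes were above 0 and all 5 erythroid genes below 0, none of them called. The summed erythroid level was 25.0 to 298 CPM in KO T3, and of the KO vehicle libraries replicate 3 alone exceeded this range. No slow-fibre gene was called with T3 in either genotype, although all 8 had a log2 change below 0 in WT. The part of these markers in the results below was not tested.

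The 4 genes called between genotypes under both treatments are shown by the 250 bases before their RefSeq start (GRCm38.p6). The letters run 5′ to 3′ on the strand of the gene. These genes are shown because they were called under both treatments and thyroid hormone receptors bind DNA with AGGTCA-like motifs. The calls of Pdhx were not firm, as given below. Capitals mark AGGTCA, the half-site that nuclear receptors bind, searched on both strands. The windows are chr2:71872974-71873223 on the plus strand for Pdk1, and on the minus strand chr6:57535488-57535737 for Ppm1k, chr19:43524606-43524855 for Got1 and chr2:103073514-103073763 for Pdhx.
Pdk1: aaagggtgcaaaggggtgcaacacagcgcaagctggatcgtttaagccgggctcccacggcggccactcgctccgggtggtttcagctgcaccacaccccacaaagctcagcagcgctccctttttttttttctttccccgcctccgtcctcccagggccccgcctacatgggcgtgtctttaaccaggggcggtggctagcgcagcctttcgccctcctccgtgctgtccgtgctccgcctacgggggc
Ppm1k: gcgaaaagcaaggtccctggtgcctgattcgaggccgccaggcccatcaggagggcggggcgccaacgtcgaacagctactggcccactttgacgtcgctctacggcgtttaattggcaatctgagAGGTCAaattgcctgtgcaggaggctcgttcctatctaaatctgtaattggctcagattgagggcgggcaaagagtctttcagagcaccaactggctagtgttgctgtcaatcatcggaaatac
Got1: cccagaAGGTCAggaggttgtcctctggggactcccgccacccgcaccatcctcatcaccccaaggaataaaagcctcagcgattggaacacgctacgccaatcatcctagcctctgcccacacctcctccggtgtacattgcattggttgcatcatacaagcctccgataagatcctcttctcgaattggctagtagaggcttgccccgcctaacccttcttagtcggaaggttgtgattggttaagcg
Pdhx: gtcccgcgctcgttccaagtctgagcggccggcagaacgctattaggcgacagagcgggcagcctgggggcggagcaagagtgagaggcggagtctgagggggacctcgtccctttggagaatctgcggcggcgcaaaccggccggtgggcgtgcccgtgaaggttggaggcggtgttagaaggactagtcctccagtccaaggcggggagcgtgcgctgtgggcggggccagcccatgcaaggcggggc

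The half-site lay once in the Ppm1k window, 124 bases before the start, and once in the Got1 window, 244 bases before it. It was not among the letters of the Pdk1 and Pdhx windows. Of the 40 genes, 38 had an entry in the promoter table, which lacked Dbt and Pdp1, and 6 of the 38 (15.8%) held the half-site, beside 14.0% of all 32851 windows. The other 4 were Got2, Sucla2, Fh1 and Bckdhb. For Sucla2 the RefSeq start used lay 27467 bases from the deposited start of the gene. The 38 genes gave 1 window each, while the background held all windows, which may include more than 1 per gene. The median GC content was 60.0% in the 38 windows and 52.4% in all, so these shares are not matched. The longer forms TCAAGGTCA and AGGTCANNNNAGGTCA, both of which contain the half-site, were in none of the 38 windows and in 0.387% and 0.0152% of all windows. A match is a description of letters and not a measured binding site.

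Levels differed widely between the 40 genes. Per kilobase of gene length, the highest in WT vehicle were Mdh1 at 623 ± 58.9 CPM per kb (mean ± SD, n = 5), Pdk4 at 564 ± 123, Ogdh at 392 ± 21.0 and Mdh2 at 362 ± 29.0. The lowest were Pdk3 at 0.659 ± 0.242 CPM per kb and Pdp2 at 2.13 ± 0.469. Genes of branched-chain breakdown lay between, from 5.09 ± 0.222 CPM per kb for Mccc1 to 62.5 ± 10.1 for Mcee. Besides the genes named below for it, Got2, Hibadh, Mccc1, Mdh1 and Pcca share exonic bases with another gene, at most 434 with any one.

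**Figure D1:**
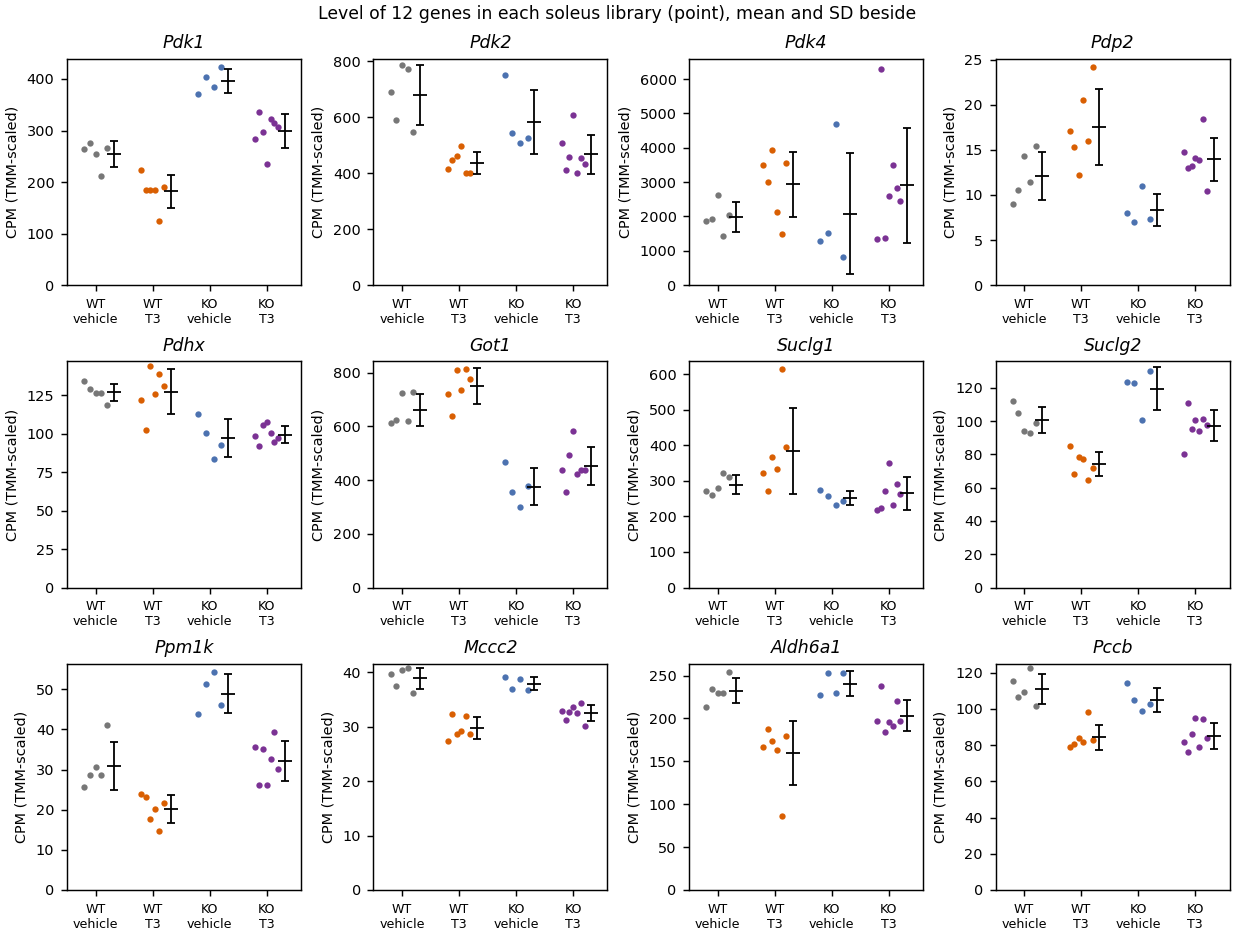
Level of 12 genes in each soleus library (points, TMM-scaled CPM on a linear axis from 0), by genotype and treatment, with the group mean and SD beside the points. Pdk1 and Ppm1k lie higher and Got1 and Pdhx lower in KO libraries, and Pdk2, Suclg2, Mccc2, Aldh6a1 and Pccb lie lower with T3 in WT. The Pdhx ranges of WT and KO overlap under T3.

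The pyruvate dehydrogenase complex is built from the E1 subunits Pdha1 and Pdhb, the E2 acetyltransferase Dlat, the E3 dehydrogenase Dld and Pdhx, which anchors E3 to the core. T3 left all 5 genes uncalled in both genotypes, with log2 changes from -0.07 (Pdha1) to 0.25 (Pdhb) in WT and from -0.03 (Dld) to 0.26 (Dlat) in KO. All 5 had log2 differences below 0 in KO against WT under both treatments, except that with scaling by total counts Dld was above 0 under vehicle and Pdha1 under T3. Dlat, the uncalled subunit gene with the smallest p under vehicle, read 294 ± 26.7 CPM in WT vehicle and 236 ± 25.9 CPM in KO vehicle, and its log2 difference was -0.32 ± 0.11 (SE, adjusted p = 0.163). Voom with quality weights called it (adjusted p = 0.0164). Part of Pdha1 overlaps exons of Map3k15 on the other strand, over 603 of 3734 bases, and reads there cannot be told apart without a known strand setting.

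Pdhx (ENSMUSG00000010914, chromosome 2, 103021075 to 103073513 on mm10) was the 1 subunit gene called. It read 134, 129, 127, 127 and 119 CPM in the WT vehicle libraries and 113, 100.3, 83.5 and 93.0 CPM in KO vehicle. All KO vehicle values lay below all WT vehicle values. The T3 groups read 103 to 144 CPM (median 128) in WT and 92.3 to 108 CPM (median 98.7) in KO, and these ranges overlapped. Pdhx was thus lower in KO by a log2 difference of -0.38 ± 0.10 (adjusted p = 0.0405) under vehicle and -0.36 ± 0.08 (adjusted p = 0.0113) under T3. Neither call was firm. Under vehicle it was lost without any 1 of 13 libraries (WT vehicle replicates 1 to 4, WT T3 replicates 1 and 4, KO vehicle replicates 2, 3 and 4, KO T3 replicates 3, 5, 6 and 7; adjusted p from 0.0504 to 0.234) and with each other scaling or no filter (up to 0.253). Under T3 it was lost without the 5 libraries apart (-0.28, adjusted p = 0.12), with scaling by total counts (-0.20, adjusted p = 0.14) and with no filter (adjusted p = 0.069).

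The 4 kinases differed in their calls. Pdk1 and Pdk2 were lower with T3 in WT, Pdk1 was higher in KO, and Pdk4 and Pdk3 were called in none of the comparisons.

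Pdk1 (ENSMUSG00000006494, chromosome 2, 71873224 to 71903858) is a kinase known as a target of hypoxia signalling. It read 264, 277, 255, 212 and 265 CPM in WT vehicle and 124 to 223 CPM (median 185) in WT T3. In KO vehicle the values were 370.2, 403, 384 and 424 CPM, and in KO T3 235 to 336 CPM (median 307). Every KO library lay above every WT library under the same treatment. The genotype difference was 0.63 ± 0.13 on the log2 scale under vehicle (1.55-fold, adjusted p = 0.00768) and 0.72 ± 0.11 under T3 (1.65-fold, adjusted p = 0.000208). Both calls held in all 13 other settings and without each of the 22 libraries in turn.

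T3 lowered Pdk1 in WT by a log2 change of -0.48 ± 0.12 (adjusted p = 0.0226), with ranges that overlapped between WT vehicle and WT T3. This call was lost with scaling by total counts, with no filter and in a fit of the 2 groups alone (adjusted p up to 0.116). It was lost too without any 1 of WT vehicle replicates 1, 2, 3 and 5 and WT T3 replicates 3 and 4 (adjusted p up to 0.0899). In KO the change was -0.40 ± 0.12 (adjusted p = 0.0844), and the KO vehicle and KO T3 ranges did not overlap. The KO change was called without WT T3 replicate 5 (-0.43, adjusted p = 0.0127) and without the 5 libraries apart (-0.46, adjusted p = 0.0139), and in 5 more of the 13 other settings (adjusted p from 0.000932 to 0.0361).

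Pdk2 (ENSMUSG00000038967, chromosome 11, 95026258 to 95041354), a kinase expressed in most tissues, fell with T3 in WT. It read 689.8, 590.2, 789, 774 and 549 CPM in WT vehicle and 399.6 to 498 CPM (median 432) in WT T3, with no overlap. The log2 change was -0.63 ± 0.13 (0.644-fold, adjusted p = 0.00561), and it was called in all 13 other settings and without each library in turn. In KO vehicle Pdk2 read 752, 544, 509 and 527 CPM and in KO T3 401 to 607 CPM (median 454). These ranges overlapped, and the log2 change in KO was -0.32 ± 0.13 (adjusted p = 0.257). The difference between the 2 responses was 0.32 with a 95% interval of -0.05 to 0.68.

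Pdk4 (ENSMUSG00000019577, chromosome 6, 5483351 to 5496261), the kinase known to rise with fasting and fatty acids, was the most abundant of the 4. It read 1868, 1925, 2632, 1432 and 2037 CPM in WT vehicle and 1490.2 to 3946 CPM (median 3249) in WT T3. In KO vehicle it read 1281, 1505, 4682 and 825 CPM, with replicate 3 far above the other libraries of its group, and in KO T3 1335 to 6283 CPM (median 2600.1). All these ranges overlapped. The log2 change with T3 was 0.57 ± 0.39 in WT (adjusted p = 0.488) and 0.49 ± 0.41 in KO (adjusted p = 0.693). The 95% interval in WT ran from -0.20 to 1.34. The genotype differences were 0.07 ± 0.43 under vehicle and -0.01 ± 0.36 under T3.

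As a description with no test, Pdk4 made up 69.0% ± 5.52 (SD) of the summed counts per kb of the 4 kinases in WT vehicle and 82.5% ± 5.39 in WT T3. The libraries ranged over 59.9% to 73.6% and 74.7% to 86.9%, with no overlap. In KO the share was 64.8% ± 15.5 with vehicle and 78.3% ± 9.07 with T3, and these ranges overlapped. Pdk2 took 26.8% ± 5.51 in WT vehicle (lowest 22.0%) and 14.9% ± 4.95 in WT T3 (highest 22.2%), so the ranges just overlapped. Pdk1 took 4.09% ± 0.553 in WT vehicle and 7.59% ± 3.57 in KO vehicle. Its ranges, 3.18% to 4.61% and 3.19% to 11.9%, overlapped through KO vehicle replicate 3. Shares of 1 sum depend on each other, so the Pdk4 share also holds the lower Pdk1 and Pdk2 counts. Pdk3 was scarce, at 1.69 ± 0.621 CPM in WT vehicle, 1.83 ± 0.846 in WT T3, 2.29 ± 0.226 in KO vehicle and 2.84 ± 1.17 in KO T3.

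The phosphatases act against the kinases. Pdp2 (ENSMUSG00000048371, chromosome 8, 104591451 to 104599026), a catalytic phosphatase subunit, was scarce, and it rose with T3 in KO. It read 7.99, 7.03, 11.0 and 7.36 CPM in KO vehicle and 10.4 to 18.4 CPM (median 13.9) in KO T3. The lowest KO T3 library lay just under the highest KO vehicle library. The log2 change was 0.74 ± 0.19 (1.67-fold, adjusted p = 0.0314). This call held in all 13 other settings, but it was lost without any 1 of KO vehicle replicates 1, 2 and 4 and KO T3 replicates 1, 3 and 6 (adjusted p up to 0.155).

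In WT, Pdp2 read 8.99, 10.6, 14.3, 11.4 and 15.4 CPM with vehicle and 12.2 to 24.2 CPM (median 16.5) with T3, and the log2 change was 0.53 ± 0.18 (adjusted p = 0.105). Its genotype difference under vehicle was -0.54 ± 0.20 (adjusted p = 0.166), called by voom with quality weights alone of the 13 other settings (adjusted p = 0.0364). Pdp1, the other catalytic subunit, had log2 changes with T3 of -0.57 ± 0.18 in WT (adjusted p = 0.0893) and -0.56 ± 0.19 in KO (adjusted p = 0.125), opposite in sign to Pdp2 and not called, although its WT ranges did not overlap. The regulatory subunit Pdpr was called in no comparison. In WT T3 replicate 5 it read 18.2 CPM, while the other WT T3 libraries read 150.3 to 222 CPM. Pdpr was singled out after its values were seen, and 169 of its 5028 exonic bases overlap a gene on the other strand.

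Pyruvate carboxylase (Pcx) refills the TCA cycle with oxaloacetate, and the aspartate aminotransferases Got1 (cytosolic) and Got2 (mitochondrial) exchange oxaloacetate with aspartate in the malate-aspartate shuttle. Got1 was called lower in KO under both treatments. None of the 3 genes was called with T3 in either genotype by edgeR, and all 3 log2 changes were above 0 in both.

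Got1 (ENSMUSG00000025190, chromosome 19, 43499752 to 43524605) read 613, 623, 724, 619 and 727 CPM in WT vehicle and 468, 356, 299 and 380.1 CPM in KO vehicle. In WT T3 it read 638 to 815 CPM (median 756), and in KO T3 357 to 582 CPM (median 436). All KO libraries lay below all WT libraries under either treatment. The log2 difference was -0.81 ± 0.14 under vehicle (0.569-fold, adjusted p = 0.00128) and -0.73 ± 0.11 under T3 (0.603-fold, adjusted p = 0.000197). Both calls held in all 13 other settings and without each library in turn.

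Got2 differed by -0.27 ± 0.12 under vehicle (adjusted p = 0.28) and -0.27 ± 0.10 under T3 (adjusted p = 0.125), and it was not called. Within each library the ratio of Got1 to Got2 per kb averaged 2.47 ± 0.307 in WT vehicle, 2.68 ± 0.185 in WT T3, 1.69 ± 0.259 in KO vehicle and 1.94 ± 0.211 in KO T3. Each KO library lay below each WT library given the same treatment. This and the other ratios were chosen after the values were seen and carry no test. Pcx read 48.4 ± 7.12 CPM in WT vehicle, 54.8 ± 14.5 in WT T3, 34.3 ± 2.33 in KO vehicle and 46.2 ± 8.55 in KO T3. Its WT vehicle and KO vehicle ranges did not overlap, and the log2 difference was -0.49 ± 0.18 (adjusted p = 0.17).

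Of the 9 TCA cycle genes, 1 was called lower with T3 in WT and 0 in KO, and under T3 1 was called higher and 1 lower in KO against WT. The 8 other than Suclg2 had log2 genotype differences below 0 under both treatments, from -0.43 (Mdh2) to -0.05 (Mdh1) under vehicle and from -0.54 (Suclg1) to -0.13 (Mdh1) under T3. With scaling by total counts Mdh1 was above 0 under both treatments, as were Fh1 under vehicle and Cs under T3. The calls lay in succinyl-CoA synthetase, whose alpha subunit Suclg1 pairs with either an ADP-forming beta subunit (Sucla2) or a GDP-forming one (Suclg2).

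Suclg2 (ENSMUSG00000061838, chromosome 6, 95473009 to 95718800) read 112, 105, 94.1, 93.0 and 98.7 CPM in WT vehicle and 64.4 to 85.1 CPM (median 74.5) in WT T3, with no overlap. T3 lowered it in WT by a log2 change of -0.44 ± 0.10 (0.739-fold, adjusted p = 0.0114). The call was lost without WT vehicle replicate 1 (adjusted p = 0.0667), with no filter and with the 2 groups alone (up to 0.0537). In KO vehicle Suclg2 read 124, 123, 101 and 130.4 CPM and in KO T3 80.3 to 111 CPM (median 97.4). The change in KO was -0.30 ± 0.10 (adjusted p = 0.12) and was called without WT T3 replicate 5 (-0.33, adjusted p = 0.0398) and without the 5 libraries apart (-0.36, adjusted p = 0.0283), and in 4 more of the 13 other settings (adjusted p from 0.00246 to 0.046). Under T3 the KO level of Suclg2 exceeded the WT level by a log2 difference of 0.39 ± 0.09 (adjusted p = 0.00915), a call lost with the 2 groups alone (adjusted p = 0.066). Under vehicle the difference was 0.25 ± 0.11 (adjusted p = 0.261).

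Sucla2, the other beta subunit, had log2 changes with T3 above 0. It read 663 ± 52.8 CPM in WT vehicle and 869 ± 121 in WT T3, and the change was 0.39 ± 0.12 (adjusted p = 0.0685). It was called in 4 of the 13 other settings (adjusted p from 0.0248 to 0.0378) and without WT T3 replicate 2 (adjusted p = 0.0342). In KO it read 539 ± 64.9 CPM with vehicle and 696 ± 91.3 with T3, and the change was 0.37 ± 0.12 (adjusted p = 0.12). The ratio of Suclg2 to Sucla2 per kb was 0.131 ± 0.00767 in WT vehicle and 0.0746 ± 0.0106 in WT T3, and 0.192 ± 0.0175 in KO vehicle and 0.121 ± 0.0120 in KO T3. T3 libraries lay below vehicle libraries of the same genotype, and KO libraries above WT libraries of the same treatment, without overlap.

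Suclg1 (ENSMUSG00000052738, chromosome 6, 73248382 to 73276904) was called lower in KO under T3. It read 271 to 616 CPM (median 349.9) in WT T3 and 217 to 351 CPM (median 263) in KO T3, and the ranges overlapped. The log2 difference was -0.54 ± 0.15 (adjusted p = 0.0291). It rested in part on WT T3 replicate 5, the highest library at 616 CPM, without which the difference was -0.37 (adjusted p = 0.0439). Without the 5 libraries apart it was -0.31 (adjusted p = 0.244). The call was lost as well with scaling by total counts (adjusted p = 0.115), with the 2 groups alone (adjusted p = 0.0911) and without any 1 of KO T3 replicates 1, 2 and 5 and WT T3 replicate 6 (adjusted p up to 0.0656). Under vehicle, Suclg1 read 271, 261, 280.2, 322 and 310.3 CPM in WT and 276, 258, 232 and 242 CPM in KO, with overlap.

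The remaining TCA cycle genes were not called in any comparison by edgeR with all libraries and TMM scaling. Citrate synthase (Cs), which opens the cycle and is widely used as a marker of mitochondrial content, had log2 changes of -0.18 ± 0.12 with T3 in WT and -0.32 ± 0.13 in KO under vehicle. Ogdh, the E1 subunit of oxoglutarate dehydrogenase, read 2141 ± 115 CPM in WT vehicle, 1672 ± 301 in WT T3, 1602 ± 312 in KO vehicle and 1379.5 ± 143 in KO T3. Its WT vehicle and WT T3 ranges did not overlap, with a change of -0.36 ± 0.13 (adjusted p = 0.149), and its difference in KO under vehicle was -0.42 ± 0.15 (adjusted p = 0.151). That difference was called without KO vehicle replicate 1, the highest KO vehicle library, or without WT T3 replicate 5 (adjusted p from 0.0363 to 0.0467). Of the 13 other settings, voom with quality weights called it (adjusted p = 0.00133).

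Dlst, the E2 subunit of the complex that holds Ogdh, had log2 values between -0.26 and -0.03 over the 4 comparisons. Fumarase (Fh1) and cytosolic malate dehydrogenase (Mdh1) lay between -0.20 and 0.17. The mitochondrial malate dehydrogenase Mdh2 read 1353 ± 433 CPM in WT T3 and 942 ± 238 in KO T3, a difference of -0.52 ± 0.17 (adjusted p = 0.0757). Without WT T3 replicate 5 the Mdh2 difference was -0.35 (adjusted p = 0.137), and it was called without WT T3 replicate 1 or KO T3 replicate 4 (adjusted p from 0.0127 to 0.0261). Of the 13 other settings 5 called it, DESeq2, voom with quality weights, 1 surrogate variable and both offsets (adjusted p from 0.00767 to 0.0466).

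**Figure D2:**
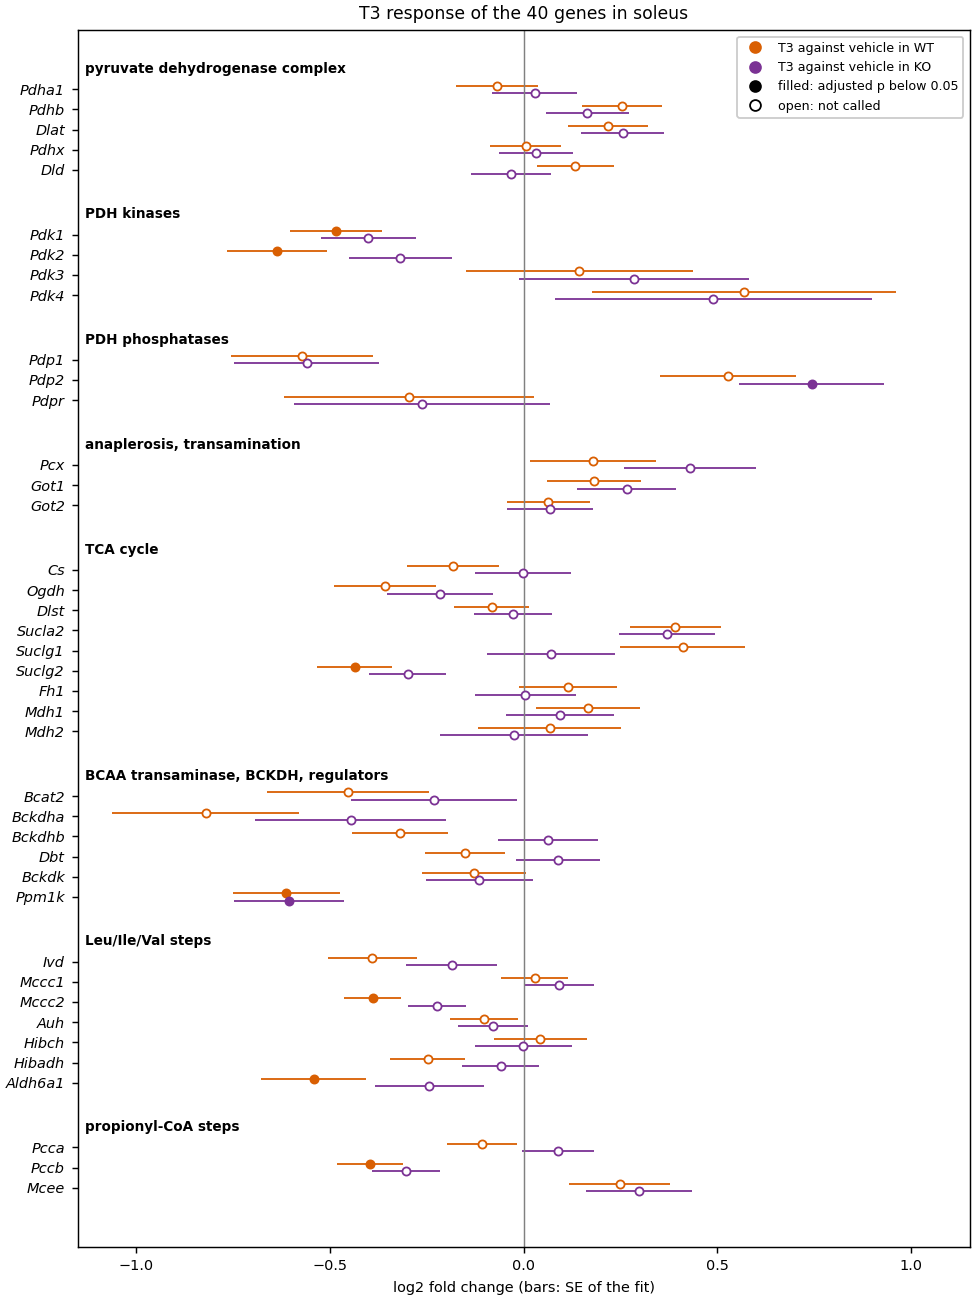
Log2 fold change of each of the 40 genes with T3 against vehicle in WT and in KO soleus, grouped by role, with the SE of the fit as bars and filled points where the adjusted p was below 0.05. The 7 filled points of WT all lie below 0, and in KO Pdp2 is filled above 0 and Ppm1k below it.

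Branched-chain amino acids are transaminated by Bcat2 and then oxidised by the branched-chain ketoacid dehydrogenase of Bckdha, Bckdhb and Dbt, which Bckdk switches off and Ppm1k switches on. With T3 in WT all 6 genes had log2 changes below 0, and 1, Ppm1k, was called. In KO 4 of 6 were below 0, and Ppm1k was again the 1 called. Between genotypes Ppm1k was the 1 gene of the 6 called under either treatment, while scaling by total counts called 3 of the 6 higher in KO under T3.

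Ppm1k (ENSMUSG00000037826, chromosome 6, 57506502 to 57535426) was lower with T3 and higher in KO. It read 25.6, 28.6, 30.7, 28.6 and 41.0 CPM in WT vehicle and 14.8 to 23.9 CPM (median 21.0) in WT T3. In KO it read 43.9, 51.3, 54.3 and 46.1 CPM with vehicle and 26.1 to 39.3 CPM (median 32.6) with T3. None of the 4 compared pairs of ranges overlapped, and KO T3 lay close to WT vehicle. The T3 change was -0.61 ± 0.14 in WT (adjusted p = 0.0141) and -0.60 ± 0.14 in KO (adjusted p = 0.0208). The genotype difference was 0.66 ± 0.15 under vehicle (adjusted p = 0.0161) and 0.67 ± 0.13 under T3 (adjusted p = 0.00196).

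The genotype call of Ppm1k under T3 held in all 13 other settings and without each library. Under vehicle it was lost without any 1 of WT vehicle replicates 1 and 4 and KO vehicle replicates 2 and 3 (adjusted p up to 0.0671). The T3 call in WT was lost without WT vehicle replicate 5, the highest of its group (-0.49, adjusted p = 0.064), without the 5 libraries apart (-0.51, adjusted p = 0.0749) and with the 2 groups alone. The T3 call in KO was lost with scaling by total counts (adjusted p = 0.063) and without KO vehicle replicate 2 or 3 (adjusted p up to 0.0708). Without the 5 libraries apart it held (-0.61, adjusted p = 0.0116).

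Bckdk, the opposing kinase, was not called. Its log2 values were -0.13 ± 0.13 with T3 in WT, -0.31 ± 0.15 in KO under vehicle and -0.29 ± 0.12 in KO under T3. The ratio of Ppm1k to Bckdk per kb averaged 0.0894 ± 0.0221 in WT vehicle, 0.0653 ± 0.0189 in WT T3, 0.175 ± 0.0319 in KO vehicle and 0.127 ± 0.0276 in KO T3. All KO vehicle libraries lay above all WT vehicle libraries, while the T3 groups overlapped.

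Of the dehydrogenase subunits, Bckdha had the widest errors. Bckdha, the E1 alpha subunit, read 93.8, 65.1, 84.6, 99.9 and 82.7 CPM in WT vehicle and 30.5 to 61.9 CPM (median 48.5) in WT T3. The ranges did not overlap, yet the change of -0.82 ± 0.24 missed the threshold (adjusted p = 0.0625). Of the 13 other settings, 8 called it (adjusted p from 0.0114 to 0.0457), as did the fits without KO T3 replicate 2, 3 or 4 (adjusted p from 0.0242 to 0.0474). It read 84.3 ± 7.21 CPM in KO vehicle and 61.8 ± 24.3 in KO T3, with KO T3 replicates 2 and 3 at 27.6 and 31.9 CPM and WT T3 replicate 1 at 30.5 CPM. These 3 are among the 5 libraries apart, without which the change in WT was -0.51 (adjusted p = 0.0406). For Bckdha 1171 of 1899 exonic bases are shared with B3gnt8 on the other strand, so reads of these genes cannot be told apart without a known strand setting.

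Bckdhb, the E1 beta subunit, read 28.3 ± 3.17 CPM in WT vehicle, 22.7 ± 3.56 in WT T3, 27.9 ± 3.21 in KO vehicle and 29.2 ± 4.21 in KO T3. Its genotype difference under T3 was 0.36 ± 0.11 (adjusted p = 0.0683), and it was called without WT T3 replicate 5 (0.40, adjusted p = 0.0315) and in 4 of the 13 other settings (adjusted p from 0.00379 to 0.0348). Dbt, the E2 subunit, read 40.9 ± 2.74, 36.8 ± 3.25, 39.9 ± 3.05 and 42.5 ± 6.37 CPM in the same order. Bcat2 read 67.3 ± 8.90, 49.2 ± 18.4, 70.2 ± 9.57 and 59.7 ± 16.3 CPM, and its change with T3 in WT was -0.45 ± 0.21 (adjusted p = 0.262). Bcat2 shares 622 of 3900 exonic bases with a gene on the other strand.

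Downstream, leucine carbon passes through Ivd, Mccc1 with Mccc2, and Auh, while valine carbon passes through Hibch, Hibadh and Aldh6a1. With T3 in WT 2 of these 7 genes were called lower, Mccc2 and Aldh6a1. In KO none was called by edgeR, and 6 of 7 log2 changes were below 0. No gene of the 7 was called between genotypes under vehicle or under T3 by edgeR with TMM scaling, and scaling by total counts called 4 of the 7 higher in KO under T3.

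Mccc2 (ENSMUSG00000021646, chromosome 13, 99948530 to 100015639), the beta subunit of methylcrotonyl-CoA carboxylase, had the smallest adjusted p of the 40 genes for T3 in WT. It read 39.7, 37.4, 40.5, 40.7 and 36.3 CPM in WT vehicle and 27.3 to 32.3 CPM (median 29.0) in WT T3. All WT T3 libraries lay below all WT vehicle libraries. The log2 change was -0.39 ± 0.07 (0.764-fold, adjusted p = 0.00288), called in all 13 other settings and without each library. In KO it read 39.2, 37.0, 38.8 and 36.8 CPM with vehicle and 30.1 to 34.4 CPM (median 32.8) with T3, also without overlap. The change in KO was -0.22 ± 0.08 (adjusted p = 0.129). Mccc1, the alpha subunit of the same enzyme, had changes of 0.03 ± 0.09 in WT and 0.09 ± 0.09 in KO.

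Aldh6a1 (ENSMUSG00000021238, chromosome 12, 84430717 to 84451003), which makes propionyl-CoA from valine, read 213, 234, 229, 229.8 and 254 CPM in WT vehicle and 85.9 to 188 CPM (median 170.2) in WT T3. The WT ranges did not overlap, and WT T3 replicate 5 was far below the rest. T3 lowered it in WT by a log2 change of -0.54 ± 0.14 (adjusted p = 0.0264), and without WT T3 replicate 5 by -0.40 (adjusted p = 0.00477). The call was lost without any 1 of the 5 WT vehicle libraries or of WT T3 replicates 1 and 4 (adjusted p up to 0.0765), with no filter and with the 2 groups alone (up to 0.149). In KO it read 227, 253, 229 and 253 CPM with vehicle and 185 to 237 CPM (median 197) with T3, a change of -0.24 ± 0.14 (adjusted p = 0.49). Of its 5784 exonic bases 1078 are shared with Bbof1 on the other strand.

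Ivd, isovaleryl-CoA dehydrogenase, read 252 ± 19.1 CPM in WT vehicle, 192 ± 34.8 in WT T3, 273 ± 20.6 in KO vehicle and 240.0 ± 25.0 in KO T3. Its change with T3 in WT was -0.39 ± 0.11 (adjusted p = 0.0606), and its difference in KO under T3 was 0.32 ± 0.11 (adjusted p = 0.0809). Both were called without WT T3 replicate 2 or without WT T3 replicate 5 (adjusted p from 0.0269 to 0.0383), and each in 4 of the 13 other settings (adjusted p from 0.00685 to 0.0473). Auh, Hibch and Hibadh had log2 values between -0.25 and 0.14 over the 4 comparisons, both ends from Hibadh, and none was called by edgeR.

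The propionyl-CoA steps feed succinyl-CoA into the cycle. Pccb (ENSMUSG00000032527, chromosome 9, 100982032 to 101034877), the beta subunit of propionyl-CoA carboxylase, read 115, 106, 109, 123 and 102 CPM in WT vehicle and 79.0 to 98.0 CPM (median 82.5) in WT T3. In KO it read 114, 105, 98.6 and 102 CPM with vehicle and 76.0 to 94.9 CPM (median 83.9) with T3. In both genotypes all T3 libraries lay below all vehicle libraries. The change was -0.40 ± 0.08 in WT (adjusted p = 0.00908), called in all 13 other settings and without each library, and -0.30 ± 0.09 in KO (adjusted p = 0.0631). The KO change was called in 7 of the 13 other settings, among them the one without the 5 libraries apart (-0.31, adjusted p = 0.0282). It was also called without any 1 of WT vehicle replicates 1 and 4, WT T3 replicates 1 to 5 and KO T3 replicate 4 (adjusted p from 0.0103 to 0.045).

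Pcca, the alpha subunit of that carboxylase, had changes of -0.11 ± 0.09 in WT and 0.09 ± 0.09 in KO. Mcee, methylmalonyl-CoA epimerase, had changes of 0.25 ± 0.13 and 0.30 ± 0.14. Neither was called in any comparison. The beta subunits Mccc2 and Pccb were thus called with T3 in WT and their alpha subunits were not, and this difference between subunits was not tested.

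**Figure D3:**
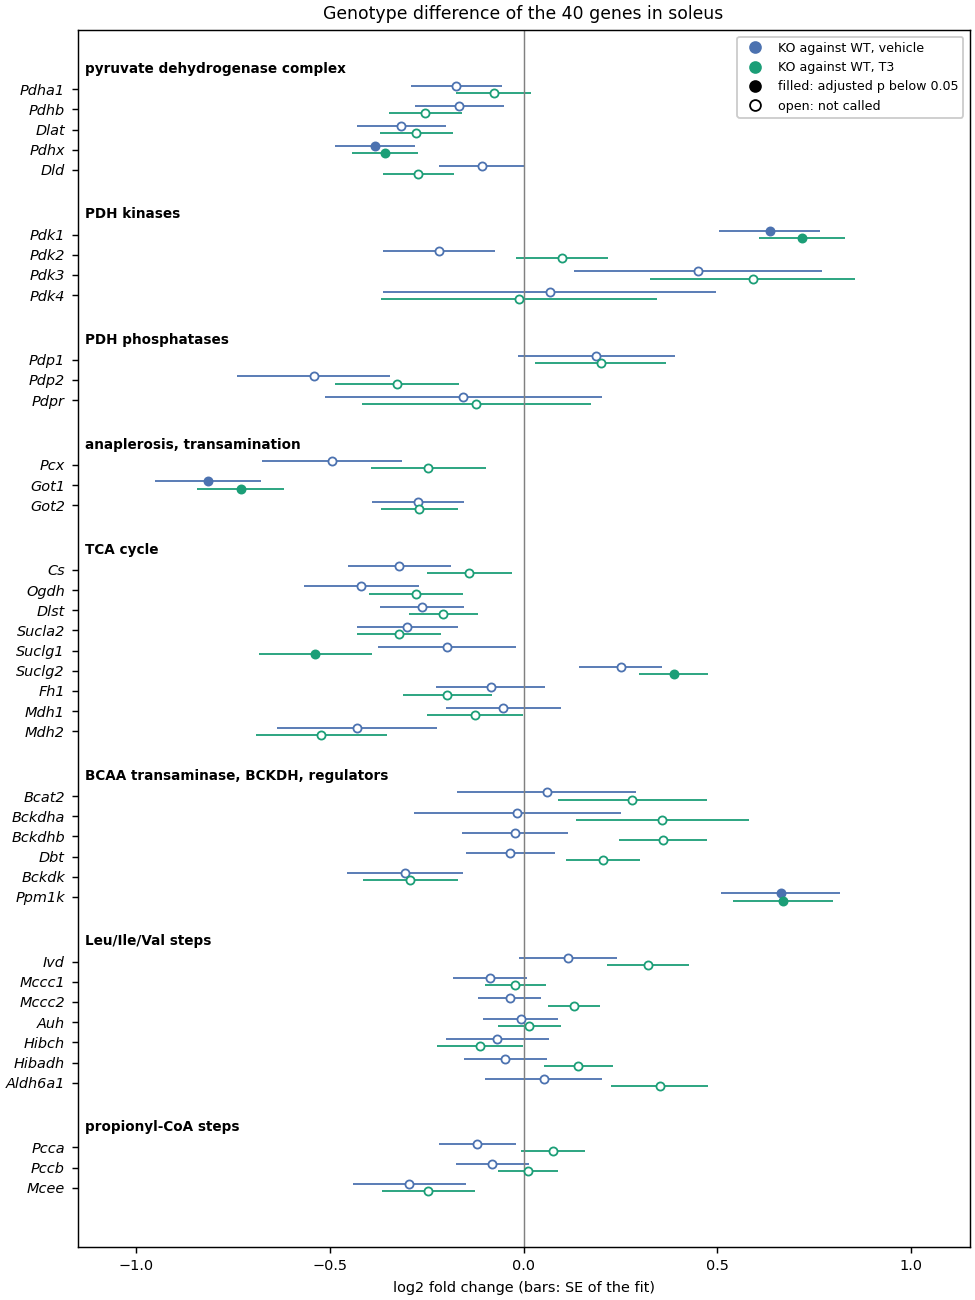
Log2 difference of each of the 40 genes in KO against WT soleus, under vehicle and under T3, grouped by role, with the SE of the fit as bars and filled points where the adjusted p was below 0.05. Pdk1 and Ppm1k are filled above 0 and Got1 and Pdhx below 0 under both treatments, and Suclg2 and Suclg1 are filled under T3.

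The T3 response was compared between genotypes by the interaction of both factors. By edgeR's quasi-likelihood test 0 of 40 genes differed in their response, and of all 15082 genes 1 did (0.00663%). At an unadjusted p below 0.05 there were 1 of the 40, Bckdhb, and 371 of all genes (2.46%). DESeq2 and limma voom, with and without quality weights, called 0 of the 40 as well. Bckdhb had the difference with the smallest p, 0.38 on the log2 scale (95% interval 0.03 to 0.73). For Ppm1k it was 0.01 (interval -0.38 to 0.40), for Pdk1 0.08 (-0.25 to 0.42), for Dbt 0.24 (-0.05 to 0.53) and for Pdp2 0.22 (-0.28 to 0.71). These intervals still include differences as large as some of the called T3 changes, so equal responses were not shown.

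The T3 responses of the genotypes, which share no library, had the same sign in 33 of 40 genes (82.5%), beside 69.9% of all tested genes. The genotype differences under vehicle and under T3, which share no library either, had the same sign in 30 of 40 genes (75.0%), beside 69.0% of all tested genes.

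Related genes outside the 40 were followed through a list of 53 genes of the same pathways. The list was chosen with earlier results of these data known. Its genes were not matched to all tested genes by level, so shares called are set side by side only as a description. With T3 in WT 1 of 53 was called higher and 2 lower, and in KO again 1 and 2. This was 5.66% of the 53 in each genotype, against 3.31% of all tested genes in WT and 2.72% in KO. In WT T3 lowered Echs1, an enoyl-CoA hydratase of valine and isoleucine breakdown (-0.38 ± 0.10, adjusted p = 0.0269), and Mmab, which makes the cobalamin cofactor of methylmalonyl-CoA mutase (-0.41 ± 0.10, adjusted p = 0.0216). It raised Foxo1, a transcription factor known to act on Pdk4 (0.70 ± 0.16, adjusted p = 0.0151). In KO T3 raised the mitochondrial alanine aminotransferase Gpt2 (1.49 ± 0.31, adjusted p = 0.00939) and lowered Echs1 (-0.36 ± 0.10, adjusted p = 0.0498) and the monocarboxylate transporter Slc16a1 (-0.43 ± 0.11, adjusted p = 0.0362).

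Between genotypes 4 of the 53 were called higher and 3 lower in KO under vehicle, and 5 higher and 2 lower under T3. This was 13.2% of the 53 under either treatment, against 3.08% of all tested genes under vehicle and 5.57% under T3. The limits given above for this list hold for these shares too. Idh3a, the alpha subunit of the NAD-dependent isocitrate dehydrogenase, was lower by -0.71 ± 0.15 under vehicle (adjusted p = 0.0094) and -0.66 ± 0.12 under T3 (adjusted p = 0.00136). The mitochondrial aspartate-glutamate carriers moved in opposite directions. Slc25a12 was lower by -0.57 ± 0.15 under vehicle and -0.53 ± 0.12 under T3, and the much scarcer Slc25a13 was higher by 0.60 ± 0.16 and 0.88 ± 0.14. Their adjusted p lay between 0.000252 and 0.0462. Mpc1, a subunit of the mitochondrial pyruvate carrier, was lower under vehicle (-0.57 ± 0.14, adjusted p = 0.0215).

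Several related genes were higher in KO under both treatments. The malic enzyme Me2 differed by 0.62 ± 0.14 under vehicle and 0.77 ± 0.12 under T3 (adjusted p = 0.0167 and 0.000246). Acadsb, an acyl-CoA dehydrogenase of isoleucine breakdown, differed by 0.44 ± 0.11 and 0.50 ± 0.09 (adjusted p = 0.023 and 0.000839). Foxo3, a forkhead transcription factor, differed by 0.71 ± 0.13 and 0.51 ± 0.11 (adjusted p = 0.00329 and 0.00562). Me1, the cytosolic malic enzyme, was called higher under T3 (0.30 ± 0.09, adjusted p = 0.0435). Some calls of related genes were lost in other settings. Scaling by total counts lost Echs1 in WT (adjusted p = 0.127) and in KO (0.181), Slc16a1 (0.162) and Slc25a12 under vehicle (0.079). Leaving out the 5 libraries apart lost Mmab (0.0917), and under T3 Acadsb (0.063) and Foxo3 (0.136). The offsets lost Echs1 in both genotypes (up to 0.284), and that for GC content and length lost Slc25a12 and Acadsb under vehicle (0.0595 for each). Fits of the 2 groups alone or with no filter lost Echs1, Mmab, Slc16a1, Slc25a12 under vehicle and Me1, and 1 of these fits lost Foxo1, Mpc1, and Slc25a13 and Acadsb under vehicle (adjusted p up to 0.182). Me1 was lost with upper quartile scaling too (0.0532).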

How the data were processed

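Per the labels, poly-A libraries were made with a stranded kit from soleus RNA, and the authors deposited raw counts per gene for 22 libraries. Per the submitters' processing notes, the tools were featureCounts 1.6.4, STAR 2.7.3a and edgeR 3.26.8, and the build was mm10. Annotation release and counting strand: not given in the sources used here. Genes kept by filterByExpr (minimum count 10) numbered 15082. One edgeR 4.0.16 model (R 4.3.3) with TMM scaling held all 4 groups. Its quasi-likelihood test was used, with Benjamini-Hochberg adjustment over all tested genes and calls at an adjusted p below 0.05. SE are those of the fit. The 95% intervals use 1.96 SE. CPM are counts relative to TMM-scaled library size, and levels per kb use the deposited gene length. The fit was also run on simulated counts with known changes. These held no libraries set apart, so that run does not vouch for the calls given here. The 40 genes and all lists were chosen with earlier results of these data known. Full values were given for genes called in any comparison, the Pdk genes, Pcx, Bcat2 and, for each comparison, the 3 uncalled genes with the smallest p. Related genes were named when called. Alternatives were 3 scalings (total counts, RLE, upper quartile), 2 other filters, DESeq2 1.42.0, limma 3.58.1 voom with and without quality weights, fits of the 2 groups compared, 1 surrogate variable (sva 3.50.0), a gene length offset, leaving out each library, and leaving out 5 T3 libraries. An offset for GC content and length was chosen after seeing the data. The 5 T3 libraries left out were chosen by their place on the principal components of these same counts. Promoters are RefSeq windows on GRCm38.p6. Figures were drawn with matplotlib 3.10.9.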

Additional observations from a re-analysis of the deposited data

Results flagged for a closer look

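For each of the 40 genes and 4 groups the highest and lowest library were compared with the rest by Dixon's ratio, and 16 of 160 sets held a library past the 95% critical value. Chance alone marks about 1 in 20 sets. Of the 16, 7 lay in WT T3 replicate 5 and 5 in KO vehicle replicate 1. The genes share their library, so these are not independent.

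In WT T3 replicate 5 the values were low for Aldh6a1 (85.9 CPM) and Pdpr (18.2 CPM), and high for Mdh1 (2660.0 CPM), Mdh2 (2199.6 CPM), Suclg1 (616 CPM), Pccb (98.0 CPM) and Pdk3 (3.43 CPM). In KO vehicle replicate 1 they were high for Ogdh (2069.7 CPM), Mdh2 (1224 CPM), Pdk2 (752 CPM), Dlst (462 CPM) and Bckdha (95.1 CPM). This library also held the highest mitochondrial share of its group (22.7%). The others were Pdk3 in WT vehicle replicate 2 (2.77 CPM) and KO T3 replicate 3 (5.28 CPM), Mdh2 in KO T3 replicate 4 (1429 CPM), and Pdp1 in KO vehicle replicate 3, which was low (41.1 CPM). KO vehicle replicate 1 is sample 4 by the labels, and the other KO vehicle libraries are samples 15, 17 and 22. WT T3 replicate 5 is sample 13. The libraries apart on the second principal component are samples 5, 6, 7 and 9, while sample 8 (WT T3 replicate 2) was not among them. Whether sample number plays a part, or what else sets these libraries apart, was not tested.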

How the results depend on the processing

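The 34 log2 values followed here were those of called genes and, for each comparison, of the 3 uncalled genes with the smallest p. None changed sign under any alternative run, but a choice by small p makes a change of sign unlikely. Of the genes not followed, Dld, Pdha1, Mdh1, Fh1 and Cs changed sign in a genotype comparison with scaling by total counts. For T3 in WT, 7 of the 40 genes were called, 11 by limma voom with quality weights and 11 with 1 surrogate variable (5.09% and 6.92% of all tested genes, against 3.31%). With 1 library left out, 4 to 9 were called. It was 4 without WT vehicle replicate 1 or 5, where 2.02% and 2.09% of all tested genes were called. It was 9 without WT T3 replicate 2 or 5, where the shares were 3.74% and 3.75%. For T3 in KO, 2 were called, 1 with total count scaling, 6 by DESeq2, 11 by voom with quality weights, 6 with 1 surrogate variable, 8 without the 5 libraries apart, 4 with the length offset and 7 with the GC and length offset. Of all tested genes, these settings called 2.64%, 4.40%, 9.76%, 5.17%, 4.5%, 3.66% and 4.79% in the same order, against 2.72%. Leaving out 1 library gave 0 to 6 there (0 without KO vehicle replicate 2, 1 without KO vehicle replicate 1 or 4 or KO T3 replicate 1, 3 or 6, and 6 without WT T3 replicate 5). Of all tested genes, 1.07% were called without KO vehicle replicate 2 and 4.64% without WT T3 replicate 5. Where 1 of the 40 was called, the share was 1.31% to 2.19%. For KO against WT under vehicle, 4 were called, 15 by voom with quality weights (13.1% of all tested genes, against 3.08%), and 2 to 5 with 1 library left out (2 without WT vehicle replicate 1 or 4 or KO vehicle replicate 2 or 3). Where 2 were called, the share of all tested genes was 1.55% to 2.2%. It was 5 without KO vehicle replicate 1 or WT T3 replicate 5, with shares of 3.49% and 5.25%. Under T3, 6 were called, 10 with total count scaling, 12 by DESeq2, 15 by voom with quality weights, 12 with 1 surrogate variable and 11 with the GC and length offset. Of all tested genes these called 9.67%, 7.51%, 9.80%, 8.53% and 8.49%, against 5.57%. Leaving out 1 library gave 5 to 12 (12 without WT T3 replicate 5, 11 without WT T3 replicate 2). These fits called 7.66% and 5.82% of all tested genes in the same order. Where 5 of the 40 were called, the share was 4.59% to 5.03%. The cause of these differences was not tested. The difference of the T3 responses gave 0 in the 12 settings run and without each library. No paired analysis was possible because the labels give no replicate numbers that groups share. Depth did not limit the 40 genes, except that Pdk3 and Pdp2 were counted at low levels.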
